A study of Mus musculus with 18 samples.

Results

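Methionine and one-carbon metabolism was followed through 10 genes of mouse liver: Mat1a, Gnmt, Bhmt, Ahcy, Cbs, Cth, Nnmt, Pemt, Shmt1 and Mthfd1. They were taken by name, for the reactions their enzymes catalyse, and all 10 were among the 16245 genes of the count table. Bulk RNA sequencing covered 18 livers, 6 from vehicle-treated mice, 6 from GDF15-treated mice and 6 from pair-fed mice. All were wild-type males of strain C57BL/6 (C57BL/6J background in the study's methods), single-housed at 29 °C, that had been given a NASH diet (a high-fat, high-fructose diet that produces fatty liver with inflammation) from 8 weeks of age. GDF15 is a hormone released under cellular stress that curbs appetite through the hindbrain receptor GFRAL, and here it was injected subcutaneously once a day as a recombinant protein. Pair-fed mice were given the amount of food that the GDF15-treated mice had eaten on the previous day, so the comparison of GDF15 with pair-fed mice asks what remains when food intake is matched. Individual doses are not in the labels and are therefore not given. The 2 comparisons that involve GDF15 share the same 6 GDF15-treated mice.

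In the methionine cycle, methionine is converted to S-adenosylmethionine, the methyl donor of most cellular methylation reactions. After a methyl group has been handed on, the remaining S-adenosylhomocysteine is split to homocysteine, which is either remethylated to methionine or carried down the transsulfuration route to cysteine. The folate cycle moves one-carbon units from serine and other donors to the remethylation step and to nucleotide synthesis. Liver is known as the main organ of methionine breakdown, and hepatocytes carry most of these enzymes.

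Of the 10 genes, 9 were higher with GDF15 than with vehicle at a DESeq2 adjusted p below 0.05, and the exception was Bhmt. The median log2 fold change of the 10 was 0.51, against 0.02 over all genes. Compared with pair-fed mice, 8 were higher, the exceptions being Bhmt and Mat1a, with a median of 0.52 against 0.01 over all genes. None of the 10 was called between pair-fed and vehicle-treated mice. The background was broad. Of 14667 genes tested, 15.8% were called higher and 17.5% lower with GDF15 than with vehicle, and the shares against pair-fed mice were 13.3% and 13.8% of 14353 genes. Among abundant genes, whose normalized counts averaged 1000 or more and to which all 10 belong, 34.5% were called higher against vehicle and 28.5% against pair-fed mice. Most of the changes were below a doubling, and Nnmt alone also passed an absolute log2 fold change of 1, a double requirement met in the higher direction by 0.9% of all genes against vehicle and 0.627% against pair-fed mice. These directions are relative to the bulk of liver transcripts. With the libraries scaled on hepatocyte marker genes instead, 3 of the 10 were called higher (Gnmt, Ahcy and Nnmt) and 3 lower (Bhmt, Pemt and Shmt1) against vehicle. In that fit, 142 of 16243 genes tested were called higher and 11288 lower.

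**Figure D1:**
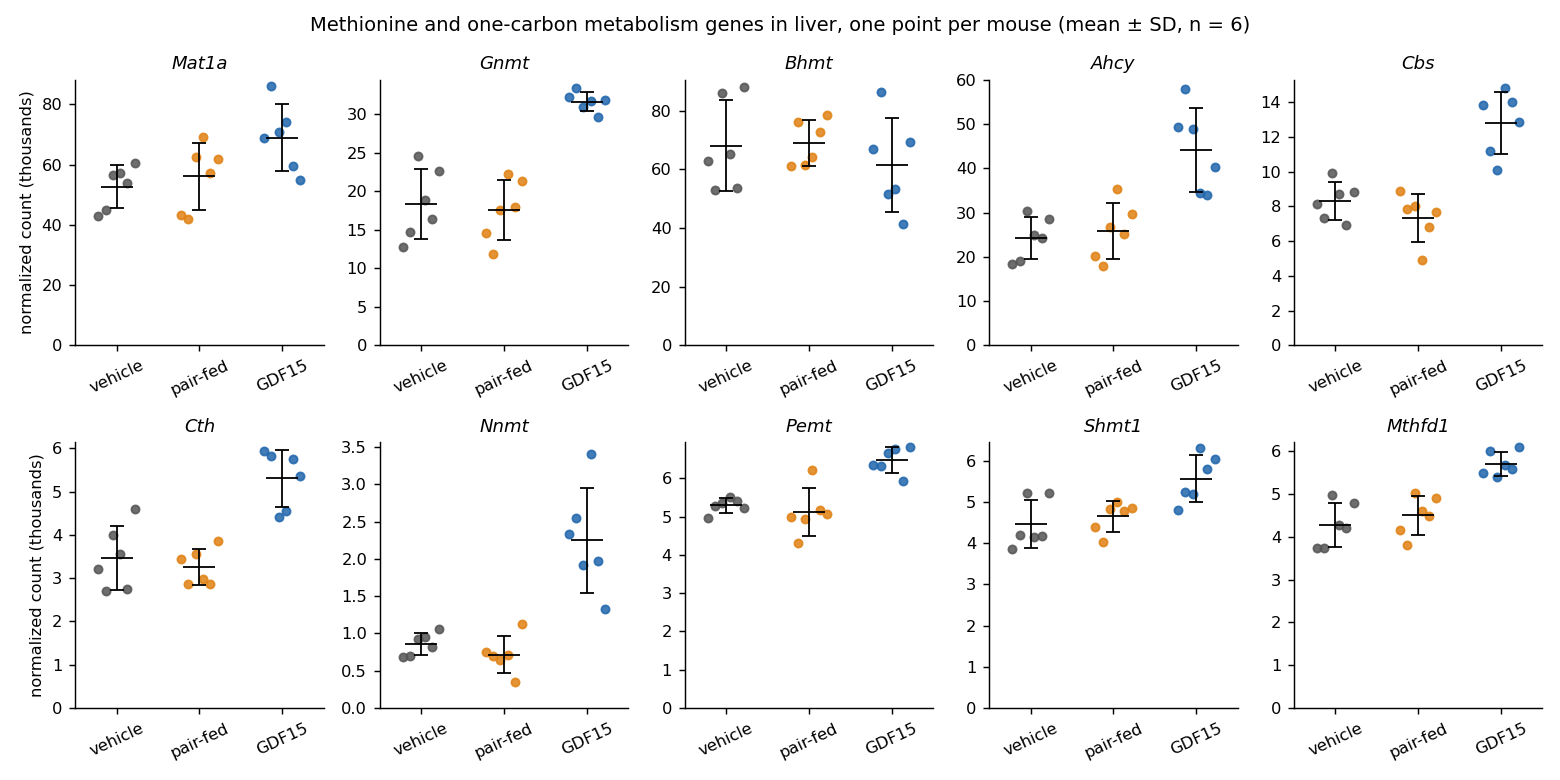
Normalized counts (divided by 1000, linear axes from 0) of the 10 genes in each of 18 livers, with 1 point per mouse and the mean and SD of 6 mice per group. The 6 GDF15-treated mice lie above all 12 other mice for Gnmt, Cbs, Nnmt and Mthfd1, and the 3 groups overlap for Bhmt.

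**Figure D2:**
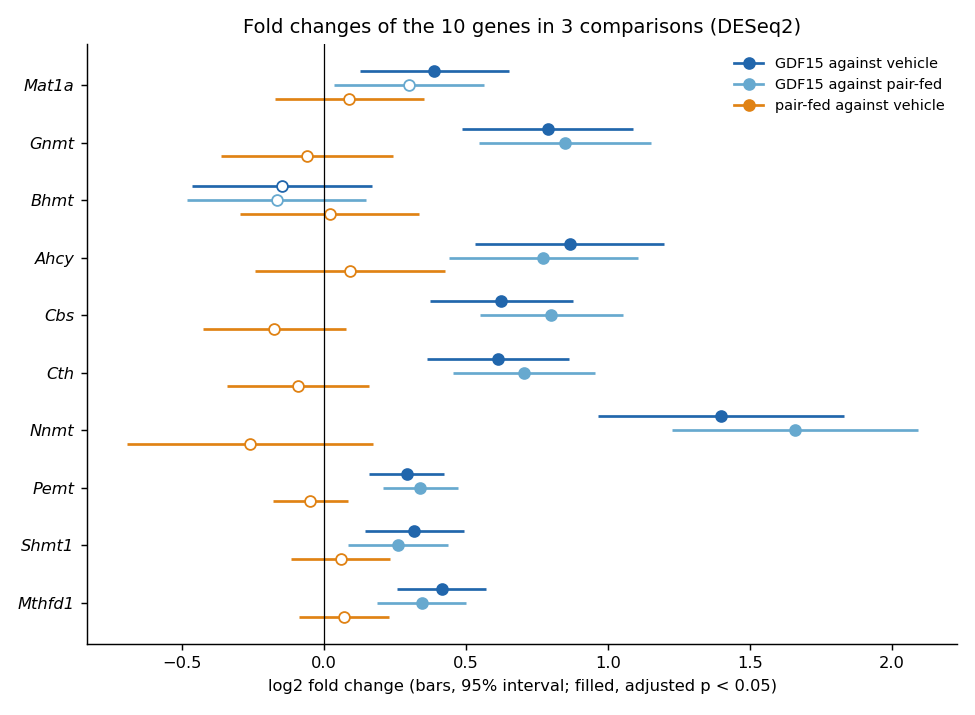
Log2 fold changes of the 10 genes with 95% intervals in the 3 comparisons, from DESeq2, with filled points for an adjusted p below 0.05. Nnmt has the highest values, 1.40 against vehicle and 1.66 against pair-fed mice, and all 10 pair-fed values lie between -0.26 and 0.09.

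Promoter sequence is shown for Gnmt, Ahcy and Cbs, which rose in both GDF15 comparisons and stand for the methyl-group, homocysteine and transsulfuration steps. RefSeq promoters of build GRCm38.p6 were matched for 7 of the 10 genes, and Mat1a, Cth and Nnmt were not matched. The sequences run 5′ to 3′ on the strand of the gene, up to the first annotated transcribed base. Capitals mark the GC box (letters GGGCGG), the CCAAT box (letters CCAAT), the nuclear receptor motif (letters AGGTCA), the TATA box (letters TATAAA) and the cAMP-response motif (letters TGACG). Both strands were searched, so a capital run may be the reverse complement of these letters. The motifs shown do not overlap one another.
Gnmt, chr17:46729212-46729415, minus strand: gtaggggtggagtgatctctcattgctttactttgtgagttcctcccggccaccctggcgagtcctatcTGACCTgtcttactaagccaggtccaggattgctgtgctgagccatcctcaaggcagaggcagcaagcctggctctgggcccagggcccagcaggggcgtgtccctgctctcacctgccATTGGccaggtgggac
Ahcy, chr2:155074498-155074747, minus strand: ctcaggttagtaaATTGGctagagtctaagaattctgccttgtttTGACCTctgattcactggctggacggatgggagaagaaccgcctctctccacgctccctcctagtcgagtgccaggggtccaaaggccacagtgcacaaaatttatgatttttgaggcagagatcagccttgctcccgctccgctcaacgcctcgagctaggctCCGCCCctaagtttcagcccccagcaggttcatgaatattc
Cbs, chr17:31637239-31637455, minus strand: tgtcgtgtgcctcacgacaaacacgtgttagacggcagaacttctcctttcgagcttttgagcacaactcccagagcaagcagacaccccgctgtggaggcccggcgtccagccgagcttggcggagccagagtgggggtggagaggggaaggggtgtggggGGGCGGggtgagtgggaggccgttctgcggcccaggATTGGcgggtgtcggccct

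Over windows of 250 bases before the RefSeq starts, 7 of 8 windows, and at least 1 window of each of the 7 genes, held a CCAAT box, a motif present in 33.8% of 32851 such windows. Pemt had 2 windows, and 1 of them lacked the motif. Not every window lies outside its annotated gene. The Pemt and Mthfd1 windows fall inside the RefSeq span of the gene, and the Shmt1 window inside the GENCODE span. The GC box was found for 4 of 7 genes against 32.7% of all windows, and AGGTCA for 4 of 7 against 14.0%. The Bhmt window held 3 copies of AGGTCA, although GENCODE places 203 of its 250 bases inside the first exon, and the CCAAT box and 2 of these 3 copies lie in that stretch. TATAAA was found in none of the 7 and TGACG for Shmt1 only, against 12.4% and 17.8% of all windows. A match of letters is no more than a description of the window.

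Levels of different genes were compared per length, as normalized counts per kilobase of 1 principal GENCODE transcript per gene. In vehicle-treated mice Bhmt was highest with 27360 ± 6228 per kilobase (SD, n = 6), followed by Gnmt with 17728 ± 4442 and Mat1a with 16428 ± 2212, whose spreads overlap. Ahcy stood at 9539 ± 1896, Pemt at 5553 ± 207 and Cbs at 3281 ± 427. Cth (1913 ± 409), Shmt1 (1563 ± 207) and Mthfd1 (1322 ± 159) formed a lower set in which neighbours did not differ beyond their spread, and Nnmt was lowest with 820 ± 140. In GDF15-treated mice Gnmt stood first with 30581 ± 1218 per kilobase, ahead of Bhmt with 24695 ± 6432, whose spread reaches the Gnmt mean. Nnmt rose to 2159 ± 675 per kilobase, a level that overlapped those of Shmt1 (1949 ± 202) and Mthfd1 (1761 ± 86.7).

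Mat1a encodes the liver form of methionine adenosyltransferase, which makes S-adenosylmethionine (build GRCm38, chromosome 14, 41105035 to 41124412). Its normalized counts were 43041 at the lowest, 55340 at the median and 60480 at the highest in vehicle-treated mice. They were 54796, 69769 and 85975 in GDF15-treated mice, and 41784, 59669 and 69329 in pair-fed mice. The groups overlapped, with 4 of 6 GDF15-treated mice above every vehicle-treated mouse and 3 of 6 above every pair-fed mouse. The log2 fold change was 0.39 ± 0.13 (SE) against vehicle, with a DESeq2 adjusted p of 0.0154, and 0.30 ± 0.13 against pair-fed mice, which was not called (adjusted p = 0.0811, 95% interval 0.04 to 0.56). Both results changed side of the threshold when single livers were left out. Against vehicle the adjusted p was 0.0527 without vehicle replicate 1, 0.0501 without vehicle replicate 2 and 0.0588 without GDF15 replicate 2. Against pair-fed mice it was 0.0368 without GDF15 replicate 6 and 0.0262 without pair-fed replicate 4. The sets of replicates differed more. With replicates 4 to 6 only, Mat1a had a log2 fold change of 0.13 against vehicle (adjusted p = 0.509), and its mean normalized counts were 62767 under GDF15 and 62889 with pair-feeding. With replicates 1 to 3 only, the value against pair-fed mice was 0.61 (adjusted p = 0.00303).

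Gnmt encodes glycine N-methyltransferase, which uses up S-adenosylmethionine by methylating glycine (chromosome 17, 46725664 to 46729168). Normalized counts ran from 12769 through a median of 17668 to 24627 in vehicle-treated mice and from 11832 through 17791 to 22254 in pair-fed mice. In GDF15-treated mice they ran from 29664 through 31791 to 33418. All 6 GDF15-treated mice were above all 12 others. The spread was also narrow under GDF15, with a coefficient of variation of 3.98% against 25.1% with vehicle and 22.4% with pair-feeding. Expressed as a log2 fold change, the difference was 0.79 ± 0.15 against vehicle (DESeq2 adjusted p = 5.87e-06) and 0.85 ± 0.15 against pair-fed mice (adjusted p = 1.31e-06).

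Nnmt encodes nicotinamide N-methyltransferase, which spends S-adenosylmethionine on nicotinamide (chromosome 9, 48591877 to 48605153). It had the lowest level of the 10 with vehicle, with a lowest normalized count of 687, a median of 869 and a highest of 1056. Pair-fed mice gave 347, 702 and 1127, and GDF15-treated mice 1328, 2152 and 3410. Every GDF15-treated mouse was again above all 12 others, though the GDF15 values themselves spanned a wide range. The log2 fold change was 1.40 ± 0.22 against vehicle (DESeq2 adjusted p = 1.13e-08) and 1.66 ± 0.22 against pair-fed mice (adjusted p = 8.65e-12), 2.63-fold and 3.16-fold. With replicates 4 to 6 only, the value against vehicle was 1.25 and its adjusted p 0.0587.

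Pemt encodes phosphatidylethanolamine N-methyltransferase, which makes phosphatidylcholine with 3 methyl groups per molecule (chromosome 11, 59970614 to 60046489). Its normalized counts were 4954, 5322 and 5521 (lowest, median, highest) with vehicle, 5938, 6505 and 6814 under GDF15, and 4322, 5024 and 6222 with pair-feeding. GDF15-treated mice were above all vehicle-treated mice, and 5 of 6 were above all pair-fed mice. The change was small, with a log2 fold change of 0.29 ± 0.07 against vehicle (DESeq2 adjusted p = 0.000169) and 0.34 ± 0.07 against pair-fed mice (adjusted p = 1.26e-05). Pair-fed replicates 1 to 3 were all below replicates 4 to 6, and with replicates 4 to 6 only the value against pair-fed mice was 0.25 (adjusted p = 0.0751).

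Ahcy encodes S-adenosylhomocysteine hydrolase, which releases homocysteine (chromosome 2, 155059310 to 155074497). Normalized counts were 18441, 24595 and 30281 (lowest, median, highest) in vehicle-treated mice, 33931, 44542 and 58011 in GDF15-treated mice, and 17981, 25944 and 35371 in pair-fed mice. All GDF15-treated mice were above all vehicle-treated mice, and 1 pair-fed mouse reached into the GDF15 range. Expressed as a log2 fold change, the difference was 0.86 ± 0.17 against vehicle (DESeq2 adjusted p = 6.91e-06) and 0.77 ± 0.17 against pair-fed mice (adjusted p = 9.51e-05). Within the GDF15 group, replicates 1 to 3 (48863 to 58011) were all above replicates 4 to 6 (33931 to 40221). With replicates 4 to 6 only, the value against pair-fed mice was 0.27 with an adjusted p of 0.161. Ahcy shares 76.5% of its 31-base words with the near-identical gene Gm4737, which took at most 1.82% of their joint counts in any library.

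Bhmt encodes betaine-homocysteine methyltransferase, which remethylates homocysteine with betaine, a product of choline (chromosome 13, 93616675 to 93637961). Normalized counts were 52954, 64023 and 88257 with vehicle, 41317, 60200 and 86447 under GDF15, and 61013, 68481 and 78720 with pair-feeding. The 3 groups overlapped throughout. The log2 fold change was -0.15 ± 0.16 against vehicle (DESeq2 adjusted p = 0.513, 95% interval -0.46 to 0.17) and -0.17 ± 0.16 against pair-fed mice (adjusted p = 0.472, 95% interval -0.48 to 0.15). A fall of this size or a small rise is thus within the interval. Bhmt shares 63.4% of its 31-base words with the gene Gm5096, which was not analysed here, so reads from the pair cannot be told apart by those words.

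Cbs encodes cystathionine beta-synthase, the first enzyme of transsulfuration (chromosome 17, 31608894 to 31637238). Its normalized counts were 6959, 8422 and 9905 with vehicle, 10128, 13353 and 14806 under GDF15, and 4891, 7755 and 8900 with pair-feeding. All 6 GDF15-treated mice were above all 12 others. Expressed as a log2 fold change, the difference was 0.62 ± 0.13 against vehicle (DESeq2 adjusted p = 1.73e-05) and 0.80 ± 0.13 against pair-fed mice (adjusted p = 3.12e-08).

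Cth encodes cystathionine gamma-lyase, the second enzyme of the route, which releases cysteine (chromosome 3, 157894248 to 157925077). The lowest, median and highest normalized counts were 2697, 3387 and 4612 with vehicle, 4406, 5559 and 5940 under GDF15, and 2858, 3204 and 3865 with pair-feeding. GDF15-treated mice were above all pair-fed mice, and 4 of 6 were above all vehicle-treated mice. The log2 fold change was 0.61 ± 0.13 against vehicle (DESeq2 adjusted p = 2.33e-05) and 0.70 ± 0.13 against pair-fed mice (adjusted p = 1.27e-06). Both enzymes of the route thus rose in both comparisons under the median-of-ratios scaling, and neither was called under the hepatocyte marker scaling, where the values against vehicle were 0.09 for Cbs and 0.10 for Cth.

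Shmt1 encodes cytosolic serine hydroxymethyltransferase, which passes a one-carbon unit from serine to folate (chromosome 11, 60788104 to 60811718). Normalized counts were 3847, 4187 and 5214 with vehicle, 4817, 5523 and 6321 under GDF15, and 4018, 4807 and 5001 with pair-feeding. The groups overlapped, with 4 of 6 GDF15-treated mice above all vehicle-treated mice and 5 of 6 above all pair-fed mice. Expressed as a log2 fold change, the difference was 0.32 ± 0.09 against vehicle (DESeq2 adjusted p = 0.00219) and 0.26 ± 0.09 against pair-fed mice (adjusted p = 0.0172). Within the GDF15 group replicates 1 to 3 were all below replicates 4 to 6, the reverse of Ahcy. The call against pair-fed mice was lost without GDF15 replicate 4 (adjusted p = 0.0541) or without pair-fed replicate 2 (adjusted p = 0.0587). With replicates 1 to 3 only, the value was 0.21 against vehicle (adjusted p = 0.229) and 0.20 against pair-fed mice (adjusted p = 0.224).

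Mthfd1 encodes the cytosolic trifunctional folate enzyme that interconverts methylene-, methenyl- and formyl-tetrahydrofolate (chromosome 12, 76255298 to 76319803). Normalized counts were 3738, 4236 and 4967 with vehicle, 5389, 5633 and 6083 under GDF15, and 3816, 4547 and 5011 with pair-feeding. All 6 GDF15-treated mice were above all 12 others, and the GDF15 values lay close together. The log2 fold change was 0.41 ± 0.08 against vehicle (DESeq2 adjusted p = 4.56e-06) and 0.34 ± 0.08 against pair-fed mice (adjusted p = 0.000251).

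Complete separation of the 6 GDF15-treated mice above the 12 others was thus seen for 4 of the 10 genes, Gnmt, Cbs, Nnmt and Mthfd1. The same separation was found for 3.71% of 12883 genes whose normalized counts averaged 10 or more, a set that includes less abundant genes. It was also found for 6 of the 12 hepatocyte markers described below.

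Pair-feeding without GDF15 gave no call for any of the 10 genes, with 0% of 16242 genes called in that comparison. DESeq2 adjusted p was 0.998 for each of the 10, and none had an unadjusted p below 0.05 in DESeq2 or in edgeR, against 718 and 620 genes of the whole table. The most negative log2 value was that of Nnmt, -0.26 (95% interval -0.70 to 0.17), followed by Cbs with -0.18 (-0.43 to 0.08). The intervals of Pemt (-0.18 to 0.08) and Mthfd1 (-0.09 to 0.23) were the narrowest. For Ahcy the interval ran from -0.24 to 0.43, so a modest difference in either direction was not detectable with 6 mice per group.

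Replicates 1 to 3 and 4 to 6 differed in library size, with totals of 21050932 to 25001486 against 16508864 to 19108435 in the GDF15 group, and 17180057 to 17926397 against 25047723 to 35301853 in the pair-fed group. The sets did not overlap for Ahcy and Shmt1 within GDF15, where 23.3% of genes showed the same, and for Gnmt, Pemt and Cbs within pair-fed, where 20% did. No member separated within vehicle, with 7.26% of genes. In replicates 1 to 3 alone, 8 of the 10 genes were called higher with GDF15 than with vehicle and 8 than with pair-feeding. Over the whole table, 1412 of 13710 and 1517 of 13081 genes tested were called higher in these 2 fits. In replicates 4 to 6 alone, 7 and 6 of the 10 were, beside 1189 of 13704 and 1086 of 13075 genes tested. Ahcy had a log2 fold change against vehicle of 1.21 in the first set. The part of library size in these differences was not tested.

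Ratios of 2 genes within a library do not depend on how libraries are scaled, and 3 were examined. The first set Mat1a against Mat2a, the methionine adenosyltransferase of most other tissues. Its log2 ratio was 5.12 ± 0.26 (SD, n = 6) with vehicle, 5.53 ± 0.24 under GDF15 and 5.14 ± 0.27 with pair-feeding, a difference of 0.40 against vehicle (exact two-sided permutation p = 0.0195, adjusted over 9 tests 0.0714) and 0.38 against pair-fed mice (exact p = 0.0325, adjusted 0.0731). The groups overlapped, with 3 of 6 GDF15-treated mice above each other group. Nnmt against Gnmt, the methyl acceptor routes for nicotinamide and glycine, gave -4.40 ± 0.18 with vehicle, -3.87 ± 0.44 under GDF15 and -4.67 ± 0.60 with pair-feeding. The difference was 0.53 against vehicle (exact permutation p = 0.0173, adjusted 0.0714) and 0.80 against pair-fed mice (exact permutation p = 0.0238, adjusted 0.0714), with 5 of 6 GDF15-treated mice above each other group. GDF15 replicate 6 was the exception, and without it the adjusted values were 0.0195 and 0.0292 (exact permutation tests). In the other 17 of 18 fits that each left out 1 mouse, neither difference passed 0.05 after adjustment. This mouse was singled out by the same values, so the fit without it lends the difference no support. Bhmt against Mtr, which remethylates homocysteine with methyl-folate, differed by -0.32 (exact permutation p = 0.247) and -0.24 (exact permutation p = 0.390). None of the 3 ratios passed 0.05 after adjustment with all 18 mice, and none of the pair-fed to vehicle differences had an exact p below 0.368.

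**Figure D3:**
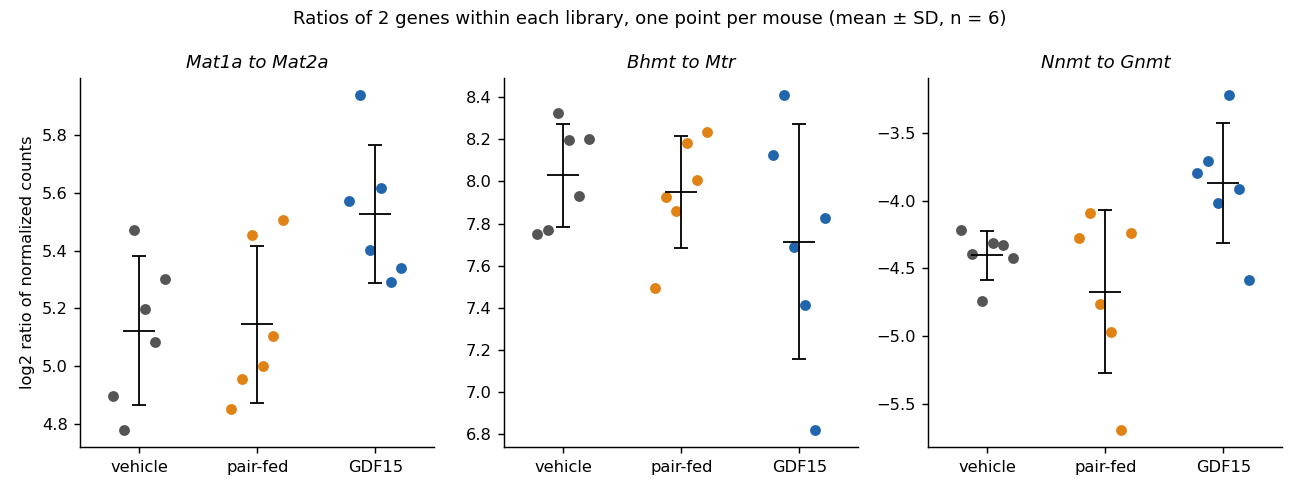
Log2 ratios of normalized counts of 2 genes within each library, 1 point per mouse with the mean and SD of 6 mice per group. The Nnmt to Gnmt ratio of 5 of 6 GDF15-treated mice lies above all vehicle-treated and all pair-fed mice, and the Bhmt to Mtr ratios overlap.

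Around the 10 genes, 59 further genes of methionine, folate, choline, serine, cysteine and polyamine metabolism were taken as 7 lists from textbook roles. Of these 59, 14 were higher and 8 lower with GDF15 than with vehicle, and 11 were higher and 9 lower than with pair-feeding. Of all genes tested, 15.8% were higher and 17.5% lower against vehicle, and 13.3% and 13.8% against pair-fed mice. The counts of the single lists below stand beside the same shares. The median log2 fold changes of the 59 were 0.02 and 0.03, beside 0.02 and 0.01 over all genes. None of the 59 was called between pair-fed and vehicle-treated mice. With total counts as library sizes, 5 of the 59 were higher and 19 lower against vehicle and 3 higher and 20 lower against pair-fed mice. That scaling called 722 of 15298 genes higher and 4946 lower against vehicle, and 626 of 14354 higher and 4439 lower against pair-fed mice. With hepatocyte marker scaling all those of the 59 that were called, 48 and 51, were lower. Among all 16243 genes tested by that scale, 11288 and 11466 were called lower.

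In the methionine cycle list, 3 of 7 genes were higher than with vehicle and none was called against pair-fed mice. These were Bhmt2, a homocysteine methyltransferase related to Bhmt (log2 fold change 0.23, DESeq2 adjusted p = 0.0159), Mtrr, which reactivates methionine synthase (0.36, adjusted p = 0.0348), and Ahcyl1, a relative of Ahcy (0.10, adjusted p = 0.0389). Mat2a (-0.02, adjusted p = 0.899) and Mtr (0.16, adjusted p = 0.341) were not called. Among small-molecule methyltransferases, 2 of 6 were lower in both comparisons, and 1 was higher than with pair-feeding only. Hnmt, which methylates histamine, had a log2 fold change of -0.47 against vehicle and -0.40 against pair-fed mice, and Tpmt, which methylates thiopurines, had -0.29 and -0.27. Of 4 genes of choline and betaine oxidation, 2 were higher than with vehicle, and 1 was higher and 1 lower than with pair-feeding. Sardh, the sarcosine dehydrogenase that clears the product of Gnmt, rose in both comparisons, by 0.42 and 0.39 (DESeq2 adjusted p = 0.00189 and 0.00598).

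The folate list held 16 genes, of which 6 were higher and 3 lower than with vehicle and 5 higher and 2 lower than with pair-feeding. Aldh1l1, which oxidises formyl-tetrahydrofolate, ranged from 16463 to 25202 normalized counts with vehicle, from 18202 to 23758 with pair-feeding and from 23722 to 32561 with GDF15. Its log2 fold changes were 0.48 and 0.40. Fpgs, which adds glutamates to folate (0.27 and 0.31), and the folate carriers Slc19a1 (0.45 and 0.38), Slc46a1 (0.30 and 0.24) and the mitochondrial Slc25a32 (0.41 and 0.31) also rose in both. For Slc46a1 all 6 GDF15-treated mice (956 to 1069) were above the 12 others (785 to 934). Mthfd1l, the mitochondrial formyl-tetrahydrofolate synthetase, fell by 1.41 against vehicle and by 1.42 against pair-fed mice (DESeq2 adjusted p = 2.06e-06 and 2.47e-06), with medians of 87.9, 84.8 and 34.4 normalized counts in vehicle-treated, pair-fed and GDF15-treated mice. Ggh, which removes glutamates from folate, fell by 0.51 and by 0.35. The cytosolic gene Mthfd1 and the mitochondrial gene Mthfd1l thus moved in opposite directions under the median-of-ratios scaling, whereas Mthfd1 stood at -0.11 against vehicle under hepatocyte marker scaling.

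Of the serine and glycine list, Phgdh, the first enzyme of serine synthesis, was lower in both comparisons, with log2 fold changes of -1.36 and -1.24 (DESeq2 adjusted p = 0.0184 and 0.0389). It was near the limit of detection, with medians of 9.46, 8.32 and 4.0 normalized counts in vehicle-treated, pair-fed and GDF15-treated mice and 0 in at least 1 GDF15-treated mouse. Of 10 cysteine, sulfide and glutathione genes, 3 were higher and 2 lower than with vehicle and 4 higher and 2 lower than with pair-feeding. Cdo1, which oxidises cysteine, rose by 0.52 and 0.53, and its GDF15 values (35978 to 41713) were above those of the 12 others (22270 to 31994). Tst (0.42 and 0.37) and Sqor (0.19 and 0.22), which both act on sulfide-derived sulfur, rose as well. The glutathione genes Gss (-0.84 and -0.69) and Gclc (-0.56 and -0.53) fell in both, and for Gss all 6 GDF15-treated mice (864 to 1525) were below the 12 others (1568 to 2630). Gclm, the modifier subunit that pairs with Gclc, was not called (0.00 and 0.02, DESeq2 adjusted p = 0.987 and 0.713). Cdo1 and these 2 called glutathione genes, Gss and Gclc, thus differed in direction under the median-of-ratios scaling. Under hepatocyte marker scaling none of the 59 genes, Cdo1 included, was called higher. In the polyamine and methionine salvage list of 9 genes, none was called against vehicle, the lowest DESeq2 adjusted p being 0.146 for Enoph1, and 1 was lower than with pair-feeding (Mtap, -0.16, adjusted p = 0.0476).

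**Figure D4:**
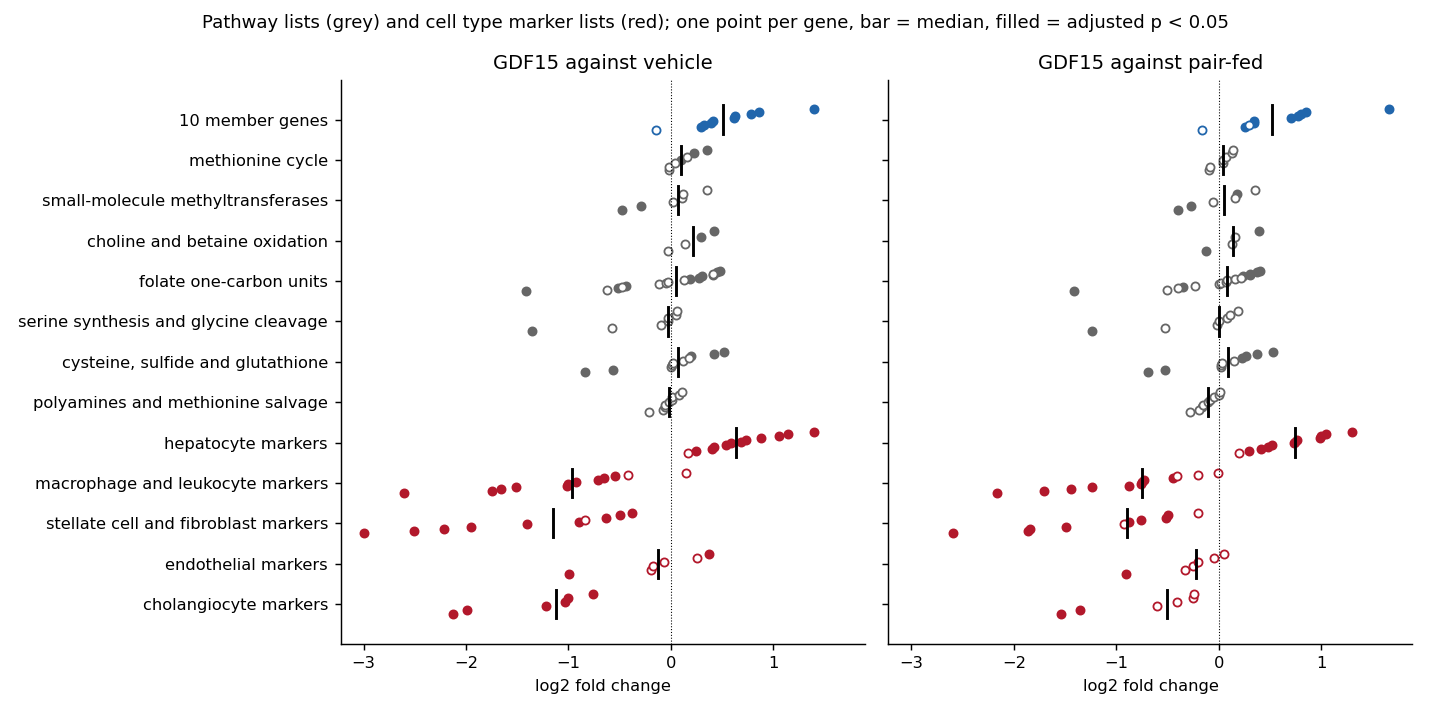
Log2 fold changes in the 2 GDF15 comparisons for the 10 genes (blue), 7 pathway lists (grey) and 5 cell type marker lists (red), with 1 point per gene, a bar at the median and filled points for a DESeq2 adjusted p below 0.05. The 10 genes have medians of 0.51 and 0.52 and hepatocyte markers 0.64 and 0.74, relative to the median-of-ratios scaling.

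Markers of the labelled tissue were present in every library. Hepatocyte markers moved in the direction of most of the 10 genes, though not of Bhmt. Of 12 markers, 11 were higher with GDF15 in both comparisons (not Ttr). The summed normalized counts of the 12 were 2406400 to 2883360 with GDF15, 1618510 to 2080890 with vehicle and 1484020 to 2252790 with pair-feeding. Macrophage and leukocyte markers were lower for 10 of 12 genes against vehicle and 9 of 12 against pair-fed mice, with sums of 3048 to 6687 with GDF15, 5830 to 11558 with vehicle and 5886 to 9735 with pair-feeding. Stellate cell and fibroblast markers were lower for 9 and 8 of 10 genes, with sums of 3947 to 5738, 8124 to 14908 and 7107 to 12238 in the same order. Cholangiocyte markers were lower for 6 and 2 of 6 genes (1033 to 2091, 2374 to 8665 and 2157 to 6034), with 1 marker at 0 in at least 1 GDF15 library. Endothelial markers were higher for 1 and 0 of 6 genes and lower for 1 and 1 (2066 to 3720, 2702 to 3659 and 3020 to 3898). The part of these markers in the rise of those of the 10 genes that were called higher was not tested. In bulk tissue, fewer cells of a type and less RNA per cell cannot be told apart.

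The size of the changes depended on what the libraries were scaled to. Total counts as library sizes put the median log2 fold change of all genes at -0.15 in both GDF15 comparisons. By that scale 6 and 7 of the 10 genes were called higher, beside 722 of 15298 and 626 of 14354 genes tested. Size factors from the 12 hepatocyte markers put the median of all genes at -0.51 against vehicle and -0.56 against pair-fed mice. The median of the 10 genes was then -0.01 and -0.04, beside 0.51 and 0.52 under the median-of-ratios scaling. Relative to those markers, Nnmt was still higher by 0.86 and 1.08, Gnmt by 0.28 and 0.30, and Ahcy by 0.37 against vehicle. Bhmt was lower by that scale, with values of -0.65 and -0.73. Of the 10 genes, 3 were higher and 3 lower against vehicle, and 2 higher and 5 lower against pair-fed mice. Of 16243 genes tested by that scale, 142 were higher and 11288 lower against vehicle. Against pair-fed mice, 93 were higher and 11466 lower.

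**Figure D5:**
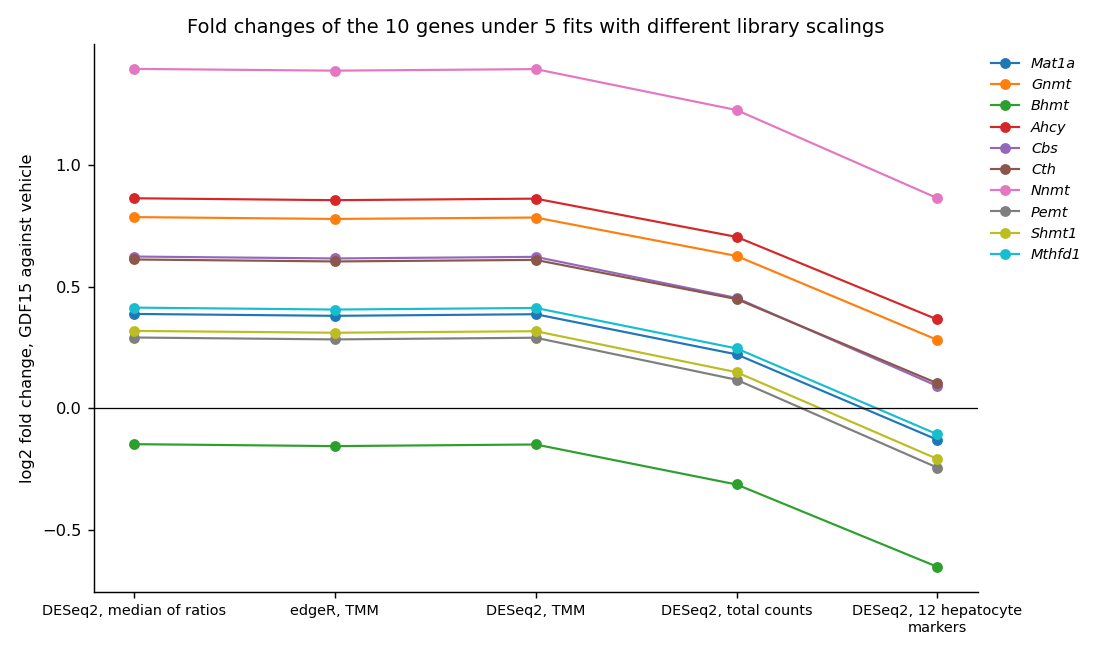
Log2 fold changes of GDF15 against vehicle for the 10 genes under 5 fits that differ in test or library scaling. The order of the genes is nearly the same, the first 3 fits nearly coincide, and with 12 hepatocyte markers as the scale Mat1a, Pemt, Shmt1 and Mthfd1 fall below 0.

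Some of the 10 genes also varied together between mice of the same group. After group means were subtracted, log2 levels over the 18 libraries, which share depth and scaling within each library, correlated with Pearson's r of 0.88 for Gnmt and Mthfd1, 0.85 for Mat1a and Ahcy, 0.84 for Gnmt and Ahcy and 0.77 for Shmt1 and Mthfd1. Cbs stood apart from that set, with r of -0.39 with Ahcy, -0.32 with Mat1a and -0.55 with Pemt, and 0.51 with Cth. Nnmt was loosely tied, its values lying between 0.00 with Pemt and 0.40 with Mat1a. These values are descriptions over mice of 3 groups.

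The genes whose pattern was most like each member were sought among 10873 others whose normalized counts averaged 50 or more, by Pearson's r of log2 levels over the 18 libraries. For Gnmt this was Serpina1d, a secreted protease inhibitor (r = 0.98, and 0.95 with group means subtracted), for Ahcy the aminoacylase Acy1 (0.97 and 0.93) and for Mthfd1 Haao, an enzyme of tryptophan breakdown (0.97 and 0.93). Nnmt was closest to Sds, the serine dehydratase (0.95 and 0.83), Cth to Cps1, which starts the urea cycle (0.93 and 0.76), and Mat1a to Epb41 (0.93 and 0.91). Cbs was closest to the receptor phosphatase Ptprj (0.96 and 0.86), Pemt to the esterase Iah1 (0.93 and 0.78) and Shmt1 to the peptidase Enpep (0.92 and 0.84). Bhmt had the loosest nearest match, the urinary protein gene Mup5 (0.83 and 0.84). Each of the other 9 genes had a match with r of at least 0.92 over all libraries, where the difference between groups also enters.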

How the data were processed

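Liver RNA from 18 mice in 3 groups of 6 was sequenced with a strand-marking kit. The authors used Trim Galore for trimming and Salmon for quantification (build mm10 per the labels, versions not given in the sources used here). They deposited estimated counts that had been rounded to integers, by gene symbol, with no library scaling. All 18 columns were used, with 16508864 to 35301853 counts per library, and the lowest row total was 5. A library's floor of 3 counts corresponds to 0.0850 to 0.182 CPM, for counting error only.

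Here, counts of all 16245 genes were fitted with DESeq2 1.42.0 (R 4.3.3, Wald test, group as the only factor, median-of-ratios size factors, Benjamini-Hochberg adjustment, independent filtering), after tests on simulated data. A gene was called at an adjusted p under 0.05. Alternatives were edgeR 4.0.16 (quasi-likelihood test), other scalings and filters, a replicate block, each replicate left out, and replicates 1 to 3 or 4 to 6 alone. Ratios were compared with exact two-sided permutation tests over all splits of 12 mice. Gene positions and transcripts came from GENCODE vM21 (GRCm38), and promoters from RefSeq (GRCm38.p6). No 2 of the 18 libraries were identical. The members, lists and tests were chosen with earlier results of these data known. Named beside the members were pathway genes called in both GDF15 comparisons, otherwise up to 3 per list with the lowest adjusted p against vehicle, plus the gene most like each member by correlation. Mtap and Gclm were named after their values were seen.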

Additional observations from a re-analysis of the deposited data

How the results depend on the processing

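Under edgeR, TMM scaling, both filter settings and fits of 12 samples, 9 of the 10 genes were called higher against vehicle. Against pair-fed mice 8 were called higher, and between pair-fed and vehicle-treated mice 0 were called. Over all genes, these fits called 2103 to 2339 higher against vehicle and 1769 to 1926 higher against pair-fed mice. The number of genes tested was 12992 to 16242. With a log2 fold change beyond 1 required, 1 and 1 of the 10 genes were called in the 2 GDF15 comparisons, both higher. Of the 59 other pathway genes, 2 and 2 were called (22 and 20 without that requirement), all lower. Over all genes, 132 were higher and 788 lower of 14667 against vehicle. Against pair-fed mice, 90 were higher and 394 lower of 14353. Of the 59, hepatocyte marker scaling gave 48 and 51, all lower, where 11288 and 11466 of all 16243 genes tested were lower. Replicates 4 to 6 alone gave 9 and 7 of the 59. Over all genes they gave 1189 higher and 1399 lower of 13704 against vehicle. Against pair-fed mice they gave 1086 higher and 1100 lower of 13075. Under hepatocyte marker scaling 4 genes reversed against vehicle (Mat1a -0.13, Pemt -0.24, Shmt1 -0.21, Mthfd1 -0.11). The same 4 reversed against pair-fed mice (Mat1a -0.25, Pemt -0.23, Shmt1 -0.31, Mthfd1 -0.22). The mean log2 size factor by markers, minus that by median of ratios, was 0.37 for GDF15 libraries. It was -0.17 for vehicle libraries and -0.21 for pair-fed libraries. This change of scale moved all genes downward in both GDF15 comparisons, these 4 included. Why most of the markers were higher was not tested. Total-count scaling ended the calls of Mat1a, Pemt and Shmt1 against vehicle (0.22, 0.12 and 0.15) and of Shmt1 against pair-fed mice (0.09). Leaving out 1 liver gave 8 to 9 and 7 to 9 calls among the 10. Among the 59 it gave 15 to 23 and 14 to 22 calls. The share over all genes was not computed for these fits. The Nnmt to Gnmt differences were then 0.40 to 0.67 against vehicle and 0.60 to 0.94 against pair-fed mice. The labels do not say that replicate numbers pair the mice. The same-number correlation of deviations was between -0.25 and 0.27, -0.26 and 0.20, and 0.04 and 0.60 in the 3 comparisons. Its mean was -0.03, 0.03 and 0.20, against 0.01, -0.01 and -0.04 for other numbers. Of 6 pairs, 0, 2 and 1 were best with their own number. For pair-fed against vehicle, a link between same numbers is thus not excluded. A replicate block gave 9, 8 and 0 calls among the 10 and an adjusted sign-flip permutation p of 0.281 for the Nnmt to Gnmt ratio in both GDF15 comparisons. With 6 mice per group, differences inside the printed 95% intervals were not resolved.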
